A study of Homo sapiens with 44 samples.

Results

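Among 407383 accessible regions (peaks) measured in Ccd18-Co human colon fibroblasts, 2229 were less accessible after each of TNF, IL-1β and TGF-β1 than in unstimulated cells. These closed peaks made up 0.547% of all peaks and 2.88% of the 77349 peaks with the minimum level required of a member. A peak was a member when its mean level in the 4 unstimulated libraries was at least 3 and when its log2 difference from unstimulated was -0.6 or less for each of the 3 cytokines. Levels are given as scaled coverage, the read coverage summed over a peak in parts per 1000000 of the coverage of the library over all peaks. The difference d was taken between group means of log2(scaled coverage + 0.5). The members were therefore chosen on the unstimulated, TNF, IL-1β and TGF-β1 libraries, and their values in those 16 libraries are a description with no test.

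Accessibility was measured by ATAC-seq, in which a transposase inserts adaptors into DNA that is not wrapped on nucleosomes. The 44 libraries formed 11 groups of 4. Cells were left unstimulated, or were given IFNα, IFNγ, IL-6, IL-13, IL-17A, IL-22, oncostatin M (OSM), TGF-β1 or TNF at 10 ng/ml, or IL-1β at 0.1 ng/ml by the labels, while 1 passage of the study gives a lower dose. Per the methods of the study all cultures, the unstimulated ones included, were kept without serum for 72 h, and stimulation lasted 24 h. Ccd18-Co is an established line, so all groups share a single genetic background and a serum-free state. The labels do not say whether replicates were separate cultures, so p-values measure the spread between these libraries, which may be technical. The plots name IL-1β, TGF-β1, IFNγ and IFNα as IL1B, TGFB1, IFNG and IFNA.

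Closed chromatin is packed on nucleosomes and is bound by fewer transcription factors, and most regions that open or close in response to a signal are enhancers away from promoters. TNF and IL-1β act mainly through NF-κB and the stress kinases that activate AP-1, and both turn fibroblasts towards cytokine and chemokine production. TGF-β1 acts through SMAD proteins and drives fibroblasts towards contractile and matrix-producing states.

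Libraries held between 148.8 and 823.1 Mb of coverage in peaks. The shallowest was the library labelled IL-6 replicate 4, which stood apart from the other IL-6 libraries. At the 305 members called higher with IL-13 below, its median log2 difference from the IL-22 and IL-17A libraries was 0.73, against 0.15, 0.27 and 0.25 in IL-6 replicates 1, 2 and 3 and 0.77 to 0.86 in the IL-13 libraries. At the 67 members called lower with IL-13 it was -0.88, against -0.16, -0.22 and -0.20, and -0.89 to -0.60 in the IL-13 libraries. At these members the library labelled IL-6 replicate 4 therefore resembled the IL-13 libraries more than the other IL-6 libraries, and IL-6 counts are given with and without it. All 10 genes of a fibroblast list had a peak within 1 kb of a start site. The highest peak of each gene lay between 5.47 and 39.0 in unstimulated cells, against a median of 1.90 over all peaks within 1 kb of a start site. Such peaks were found for 3 of 5 epithelial genes (1.79 to 4.60) and for all 3 endothelial genes (0.770 to 4.38). Among leukocyte genes CD68 had a peak at 26.3 and PTPRC at 8.40, and CD3E had none, so that CD68 and PTPRC lay within the range of the fibroblast genes.

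The central 200 bases of 6 members with the lowest mean d are shown first, because these regions lost the most accessibility (hg38, plus strand). Capitals mark the strings CAGCTG (an E-box, bound by basic helix-loop-helix factors), TGTTTAC (forkhead factors), TTGCNNAA (C/EBP factors) and TGANTCA (AP-1), searched on both strands. AFAP1L2 held the E-box and SACM1L the C/EBP string, and the other 4 stretches held none of these strings.
LINC01365, chr4:119835740-119835939: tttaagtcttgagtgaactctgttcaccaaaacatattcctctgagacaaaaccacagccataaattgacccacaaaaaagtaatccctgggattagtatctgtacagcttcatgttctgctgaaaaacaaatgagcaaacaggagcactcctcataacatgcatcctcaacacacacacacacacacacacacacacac
AFAP1L2, chr10:114349980-114350179: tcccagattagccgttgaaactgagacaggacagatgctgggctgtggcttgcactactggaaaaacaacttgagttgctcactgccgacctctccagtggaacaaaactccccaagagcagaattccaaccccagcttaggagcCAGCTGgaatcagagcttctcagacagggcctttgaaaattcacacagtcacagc
ADAMTS9-AS1, chr3:64548336-64548535: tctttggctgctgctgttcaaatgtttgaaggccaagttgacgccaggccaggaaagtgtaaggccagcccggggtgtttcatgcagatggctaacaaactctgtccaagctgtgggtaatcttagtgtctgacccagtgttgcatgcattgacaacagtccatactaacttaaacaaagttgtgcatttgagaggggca
NRP2, chr2:205835565-205835764: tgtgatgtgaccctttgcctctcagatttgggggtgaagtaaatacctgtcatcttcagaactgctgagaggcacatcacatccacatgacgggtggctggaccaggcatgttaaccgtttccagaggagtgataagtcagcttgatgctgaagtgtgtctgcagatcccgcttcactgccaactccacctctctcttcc
SACM1L, chr3:45628894-45629093: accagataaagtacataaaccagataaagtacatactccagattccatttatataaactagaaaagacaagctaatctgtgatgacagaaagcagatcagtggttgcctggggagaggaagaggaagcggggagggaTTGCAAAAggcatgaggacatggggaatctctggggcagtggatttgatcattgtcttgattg
PPM1A, chr14:60215046-60215245: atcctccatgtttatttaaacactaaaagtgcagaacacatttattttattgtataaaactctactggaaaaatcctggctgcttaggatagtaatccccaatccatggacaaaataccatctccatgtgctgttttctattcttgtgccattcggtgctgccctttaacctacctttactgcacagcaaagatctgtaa

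The next pair were the members with the lowest mean d, after the 12 described below, whose central 200 bases held the E-box. They were chosen after their values were seen, to show a string that was more frequent among members than among other peaks of the same level. The member at NCOA3, a nuclear receptor coactivator gene, had a mean d of -1.86 and the member at MIR3152 had -1.84.
NCOA3, chr20:47559271-47559470: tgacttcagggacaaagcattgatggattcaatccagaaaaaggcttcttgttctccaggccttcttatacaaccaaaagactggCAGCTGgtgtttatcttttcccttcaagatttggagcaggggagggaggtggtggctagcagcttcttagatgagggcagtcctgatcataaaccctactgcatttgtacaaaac
MIR3152, chr9:18726653-18726852: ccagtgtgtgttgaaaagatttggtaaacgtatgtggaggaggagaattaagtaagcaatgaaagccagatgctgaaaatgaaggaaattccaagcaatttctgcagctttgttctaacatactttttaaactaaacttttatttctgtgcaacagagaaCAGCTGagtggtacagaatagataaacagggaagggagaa

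The last pair were chosen in the same way for the forkhead string. The member at LINC01126 had a mean d of -1.84, and a second member at NRP2 had -1.56.
LINC01126, chr2:43349945-43350144: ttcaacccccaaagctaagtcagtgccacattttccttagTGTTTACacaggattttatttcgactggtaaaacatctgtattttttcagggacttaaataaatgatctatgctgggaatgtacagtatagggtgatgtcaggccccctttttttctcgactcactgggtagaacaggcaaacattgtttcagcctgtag
NRP2, chr2:205367485-205367684: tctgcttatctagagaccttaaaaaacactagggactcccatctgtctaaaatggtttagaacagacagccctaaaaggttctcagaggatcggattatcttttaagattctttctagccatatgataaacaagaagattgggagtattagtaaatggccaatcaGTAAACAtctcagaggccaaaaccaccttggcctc

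The 3 cytokines that defined the members left less coverage in them than any other group had. In unstimulated cells the 2229 peaks held 1.81 ± 0.096% of the coverage of a library (mean ± SD, n = 4, range 1.67% to 1.88%). The share was 0.901 ± 0.018% with TGF-β1, 0.853 ± 0.0052% with IL-1β and 0.83% with TNF, where the libraries lay between 0.809% and 0.846%. The highest of these 12 libraries lay below the lowest of the other 32. The groups that the rule did not use were not alike. The share was 1.92 ± 0.0465% with IL-13, 1.74 ± 0.091% with IL-6, 1.73 ± 0.0311% with IL-22, 1.65 ± 0.0865% with IFNγ and 1.61 ± 0.0264% with IL-17A. The IL-6 libraries held 1.65%, 1.75%, 1.71% and 1.87% for replicates 1 to 4. OSM (1.47 ± 0.027%) and IFNα (1.34 ± 0.0451%) were lower, and their libraries did not overlap those of the other 5. Fewer cells with an open region and less accessibility per cell cannot be told apart in bulk libraries.

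**Figure D1:**
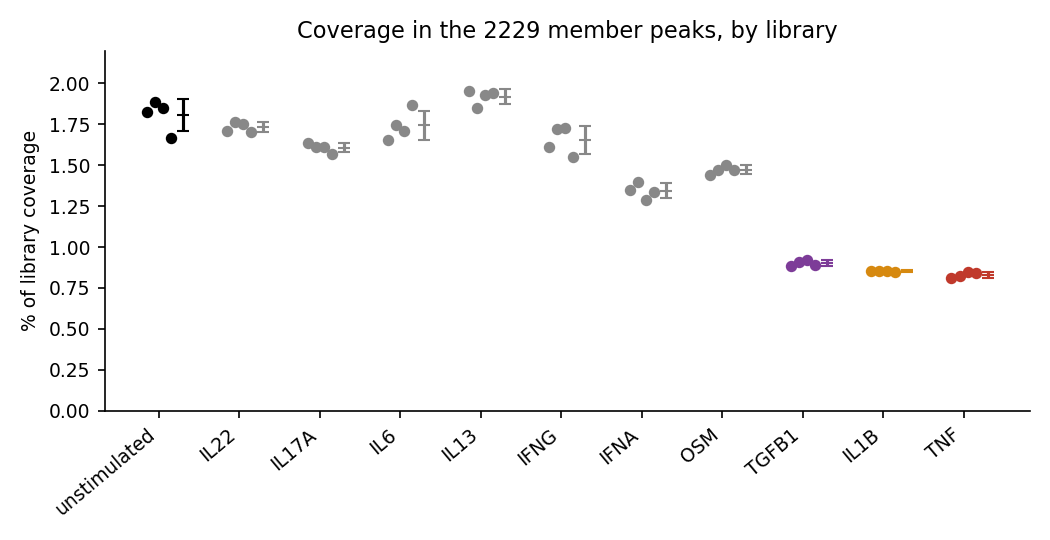
Percentage of each library's peak coverage that fell in the 2229 members (y axis) for the 11 groups (x axis). Points are libraries and the bar beside them is the mean ± SD (n = 4). TNF, IL-1β and TGF-β1 lie below 1% and were used to choose the members, while OSM and IFNα lie between them and the remaining groups.

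Median d over the members was -1.02 for TNF, -0.97 for IL-1β and -0.90 for TGF-β1, which is 0.494, 0.509 and 0.536 of the unstimulated level on the log2(scaled coverage + 0.5) scale. Over all peaks with the same minimum the medians were -0.06, -0.06 and -0.16 in the same order. Those peaks held 64.5% of the coverage with TGF-β1 and 71.0% in unstimulated cells. How far this general shift enters the TGF-β1 differences of members was not tested. The mean of the 3 differences ran from -2.21 to -0.62 with a median of -0.98. It was -1 or less in 1057 members and -1.5 or less in 105. TNF gave the lowest of the 3 values in 972 members, IL-1β in 732 and TGF-β1 in 525. All 12 treated libraries lay below all 4 unstimulated libraries in 1305 members (58.5%). The rule chose members on these same libraries, and the share among other peaks was not counted. The unstimulated level ran from 3.00 to 66.3 with a median of 6.12, against a median of 6.29 over all peaks with the same minimum.

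Many members sat near the threshold. In 800 members (35.9%) the highest of the 3 differences lay between -0.7 and -0.6. The members just inside the threshold were peaks at SNORD68 and EDAR and those just outside it lay at PLEC and AGPAT3, with a highest d of -0.60 to 2 decimals in all 4. At the minimum level, the last member lay near OSTC, with unstimulated values of 2.21, 5.1, 3.12 and 1.59, and the first peak outside lay near SNX18, with 3.51, 2.77, 3.52 and 2.19.

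Because members had to be high in the unstimulated libraries, the rule was repeated without each library and read in the library left out. The median difference between the 3 cytokines and the left-out unstimulated replicate was -0.91, -0.94, -0.91 and -0.76 for replicates 1, 2, 3 and 4. Between 96.0% and 97.1% of the peaks chosen in this way were lower after stimulation than in the unstimulated library left out. The 12 treated libraries were still those used to choose the peaks, so these values are a description. Replicate 4 gave the smallest difference, and 2766 peaks were chosen without it. Members were highest in unstimulated replicate 4 in 304 cases, against 556, 719 and 650 in replicates 1, 2 and 3. Left-out treated libraries gave median differences of -0.97 to -1.05 for TNF, -0.93 to -0.97 for IL-1β and -0.82 to -0.87 for TGF-β1. They were set against the same unstimulated libraries that chose the peaks. The remaining libraries of the same cytokine also chose them, so these values are a description too. Against the 8 IL-22 and IL-17A libraries the medians were -0.88 for TNF, -0.84 for IL-1β and -0.77 for TGF-β1. The rule did not use these 8 libraries, but it chose members for low values in the TNF, IL-1β and TGF-β1 libraries set against them. Unstimulated libraries themselves lay 0.15 above those 8 libraries at the median member. Relative to these 8 libraries 1750 members (78.5%) were at -0.6 or less for TNF, 1693 (76.0%) for IL-1β and 1550 (69.5%) for TGF-β1. The shares were 8.54%, 9.29% and 9.56% of peaks with the same minimum in the same order, and 5.10%, 3.95% and 3.12% of all peaks.

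**Figure D2:**
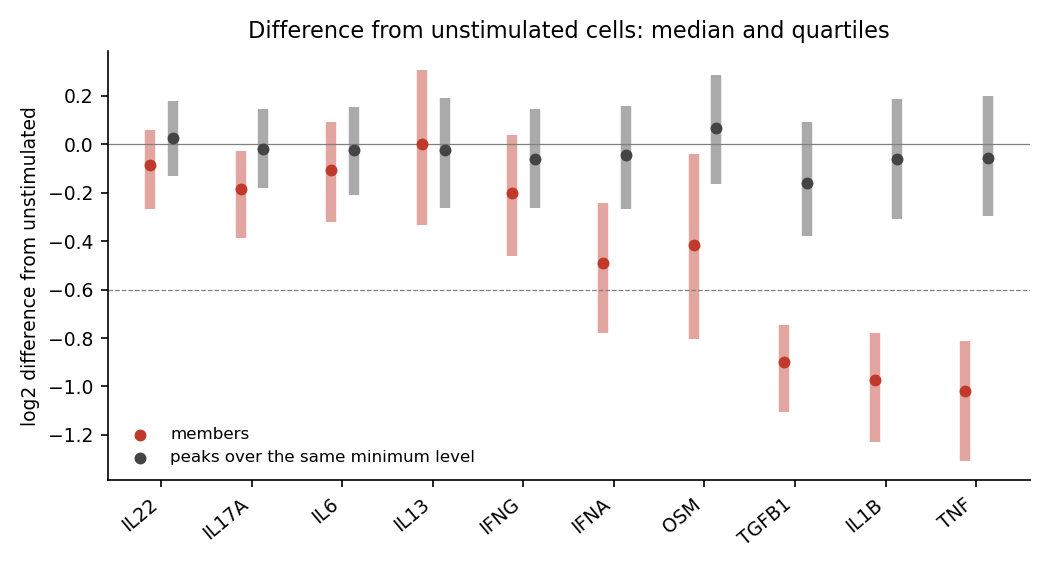
Log2 difference from unstimulated cells (y axis) for each cytokine (x axis), as the median (point) and quartiles (bar) over the 2229 members and over the 77349 peaks with the same minimum level. The dashed line is the threshold of -0.6 applied to TNF, IL-1β and TGF-β1. Member medians of the other 7 cytokines run from -0.49 with IFNα to 0.00 with IL-13.

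The 12 members with the lowest mean d lay at genes of several kinds. The deposited table names 1 gene for each peak, which is not always the one the peak overlaps, and gene activity was not measured here. The lowest mean d belonged to an intergenic peak near LINC01365 (chromosome 4, 119835589 to 119836089, hg38). Its scaled coverage was 11.2, 15, 14.6 and 11.2 in unstimulated cells, 0.833, 3.18, 1.19 and 1.43 with TNF, 1.39, 3.72, 3.91 and 1.56 with IL-1β, and 4.61, 2.65, 3.16 and 4.52 with TGF-β1. The 12 treated libraries all lay below the unstimulated ones, and the ratio of means was 7.85-fold lower with TNF and 3.48-fold lower with TGF-β1.

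The next member lay in an intron of AFAP1L2, which encodes an actin-associated adaptor of kinase signalling (chromosome 10, 114349829 to 114350329). It held 11.8, 11.1, 12.3 and 6.89 in unstimulated cells, 1.98, 1.63, 3.19 and 1.48 with TNF, 2.65, 2.0, 2.0 and 2.46 with IL-1β, and 3.08, 1.7, 1.06 and 1.3 with TGF-β1. TGF-β1 gave the lowest mean here, 5.91-fold below unstimulated. The AFAP1L2 peak is the one whose E-box is printed above.

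The peak assigned to ADAMTS9-AS1 lay in an intron of ADAMTS9, a matrix metalloprotease gene (chromosome 3, 64548185 to 64548685). It held 20.5, 28.8, 29.5 and 22.5 in unstimulated cells, 4.23, 4.18, 5.7 and 3.59 with TNF, 4.32, 4.86, 4.24 and 3.02 with IL-1β, and 11, 10.4, 10.7 and 8.91 with TGF-β1. The TNF and IL-1β libraries all lay below the TGF-β1 libraries.

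An intergenic peak near NRP2, the gene of a co-receptor for semaphorins and vascular endothelial growth factors (chromosome 2, 205835414 to 205835914), held 5.66, 8.72, 8.89 and 7.68 in unstimulated cells, 1.14, 1.06, 0.796 and 1.72 with TNF, 3.0, 0.997, 1.56 and 1.37 with IL-1β, and 1.01, 2.39, 1.61 and 2.43 with TGF-β1. The peak assigned to SACM1L lay in an intron of LIMD1, a scaffold protein gene that acts in the Hippo pathway (chromosome 3, 45628743 to 45629243). It held 11.6, 13.6, 15.6 and 11.1 in unstimulated cells, 5.63, 2.2, 4.27 and 3.56 with TNF, 3.83, 2.28, 2.48 and 2.47 with IL-1β, and 1.87, 2.92, 2.0 and 2.2 with TGF-β1. SACM1L was lowest with TGF-β1, 5.78-fold below the unstimulated mean.

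An intergenic peak assigned to PPM1A, a phosphatase gene whose product acts on SMAD proteins (chromosome 14, 60214895 to 60215395), held 8.17, 5.89, 6.18 and 7.09 in unstimulated cells, 0.949, 0.825, 0.807 and 1.2 with TNF, 1.11, 2.13, 1.76 and 1.57 with IL-1β, and 2.46, 2.19, 0.635 and 1.5 with TGF-β1. The remaining 6 of the first 12 were peaks at NCBP3 (an mRNA cap-binding protein), TGFB2-OT1 (in an intron of the growth factor gene TGFB2), PRELP (a matrix proteoglycan), LINC00670, EBLN2 and NCKAP5-AS2, with mean d from -1.91 to -1.86. In all 12 the treated libraries lay below the unstimulated ones. PRELP and LINC00670 were low peaks, with unstimulated means of 4.12 ± 1.31 and 4.99 ± 1.15, and 7 and 5 of their 44 libraries held no more coverage than 3 reads would give.

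**Figure D3:**
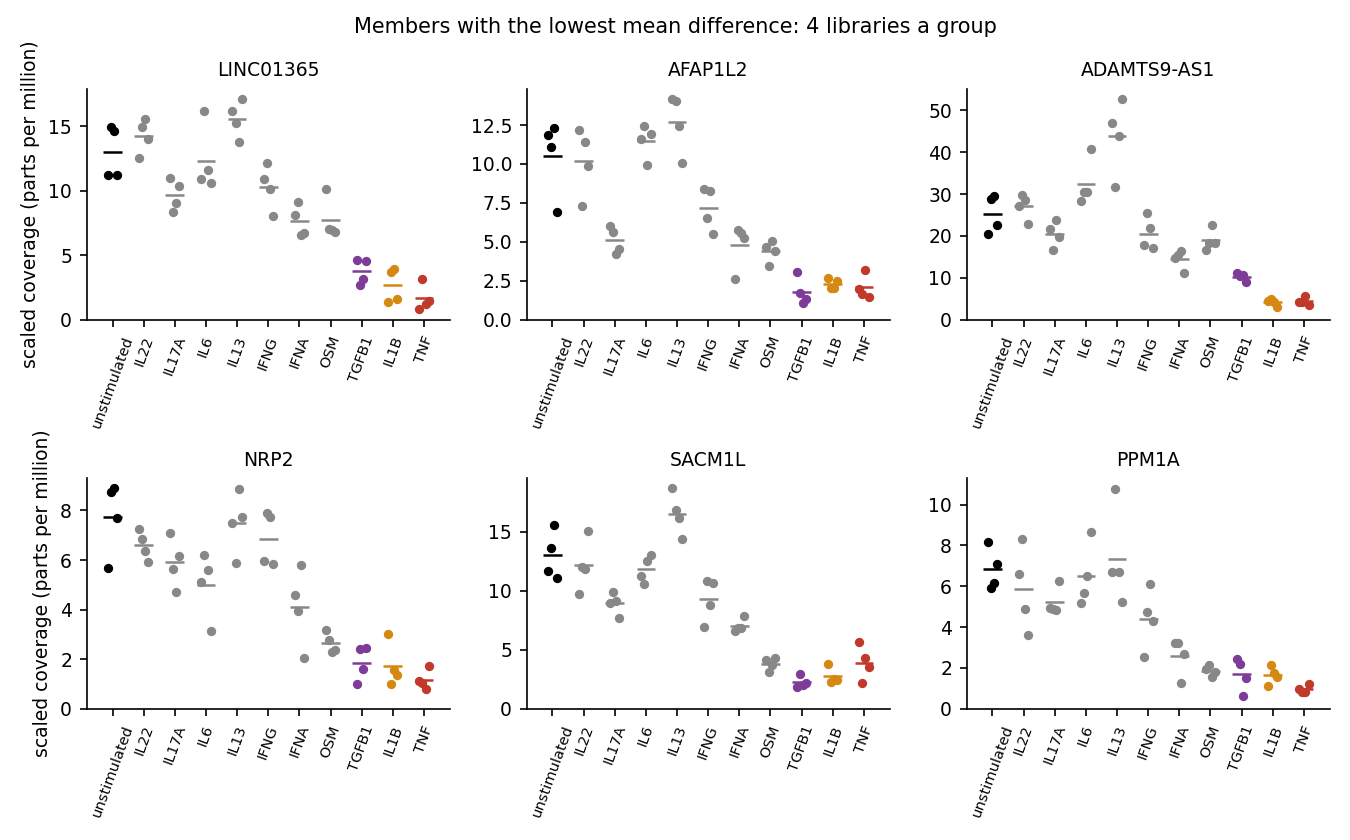
Scaled coverage (y axis, each panel on its own linear scale from 0) of the 6 members with the lowest mean d in all 44 libraries, by group (x axis). Points are libraries and lines are group means (n = 4). In each panel the TNF, IL-1β and TGF-β1 libraries lie below all unstimulated libraries.

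The member with the highest unstimulated level was a distal peak near RGS6, a regulator of G protein signalling (chromosome 14, 71798764 to 71799264), with 58.2, 72.5, 72 and 62.7 in unstimulated cells, 40.2, 39.9, 39 and 40.1 with TNF, 43.7, 33.5, 44.9 and 37.4 with IL-1β, and 38.1, 34.5, 35.4 and 32.3 with TGF-β1. A WNT2B peak 1328 bases from a start site of this WNT ligand gene held 53.4 ± 2.93 in unstimulated cells and was 1.58-fold lower with TNF, 1.65-fold with IL-1β and 1.66-fold with TGF-β1. A peak assigned to MIR143 lay in an exon of CARMN, the non-coding host gene of smooth muscle microRNAs (chromosome 5, 149422517 to 149423017). The MIR143 peak held 46.6, 53.9, 54.3 and 51.5 in unstimulated cells, 20.1, 24.6, 25.5 and 25.9 with TNF, 28.5, 21.9, 22.6 and 21 with IL-1β, and 25.6, 26.2, 32.4 and 24.8 with TGF-β1, with no overlap between unstimulated and treated libraries. Peaks near RNF26 (48.3 ± 7.3) and PRICKLE2 (47.5 ± 8.98) completed the 5 highest members. RNF26 had a d of -1.51 with TNF, -1.48 with IL-1β and -0.71 with TGF-β1.

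The 5 members of the deposited promoter class with the lowest mean d lay at non-coding or poorly described transcripts, NCKAP5-AS2, LINC01497, LOC100506688, FAM87A and LINC02104. The LINC01497 peak lay 12 bases from the start site and held 11.8, 13.5, 13.4 and 15.2 in unstimulated cells, 4.1, 3.03, 2.66 and 2.85 with TNF, 4.67, 4.38, 6.54 and 5.46 with IL-1β, and 2.17, 3.87, 4.72 and 4.21 with TGF-β1. LOC100506688 was lowest with TGF-β1 (d of -2.36, against -1.04 with TNF and -1.15 with IL-1β). NCKAP5-AS2 was lowest with IL-1β (d of -2.58, against -1.81 with TNF and -1.19 with TGF-β1).

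Few members lay at promoters. The deposited class was promoter for 68 members (3.05%), against 18.6% of the 77349 peaks with the same minimum. Introns held 53.6% of members and 45.3% of those peaks, and distal sequence held 37.6% against 26.4%. By the GENCODE v44 annotation 18.7% of members lay within 2 kb of a start site, against 47.6%. The median distance to a start site was 8918 bases for members, 2457 bases for peaks with the same minimum and 8522 bases for the 868 peaks opened by all 3 cytokines (d of 0.6 or more for each). The deposited class was promoter for 3.0% of those opened peaks and for 4.50% of peaks closed by exactly 2 of the 3. Median GC content was 43.5% in members, 49.7% in peaks with the same minimum, 44.3% in peaks opened by all 3 and 45.1% in all peaks. The share of peaks with the same minimum that were members ran from 0.990% on chromosome 19 to 4.08% on chromosome 18.

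Members lay near other members. Of the peaks with the same minimum that lay within 10 kb of a member, 9.40% were members themselves (382 of 4064 pairs), against 2.88% overall. In all 310 members (13.9%) had another within 10 kb, and neighbouring peaks are not independent. The members were assigned to 1798 genes, of which 320 had at least 2 and 24 at least 4. The genes with most members were RNU105B (6 of 16 peaks with the same minimum, all in PLCB1, a phospholipase gene), VAPA (6 of 23), TGFB2-OT1 (5 of 19), TRAF3IP2 (5 of 29), NID1 (5 of 21), a basement membrane gene, and IGFBP5 (5 of 41), an insulin-like growth factor binding protein gene. The 5 members at IGFBP5 spanned 69.0 kb with mean d from -1.33 to -0.75. The 6 members at RNU105B spanned 330.2 kb with mean d from -1.82 to -0.78.

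The AP-1 string was scarce in members and frequent in peaks opened by the same cytokines. TGANTCA was present in 14.8% of members, 31.7% of peaks with the same minimum, 25.7% of all peaks and 74.3% of the peaks opened by all 3. It was in 27.5% of peaks closed by exactly 1 of the 3 cytokines (9291 peaks) and 20.7% of peaks closed by exactly 2 (4223 peaks). The E-box CAGCTG was in 43.8% of members, 40.3% and 36.9% of peaks closed by exactly 2 and exactly 1, 31.2% of peaks with the same minimum, 28.4% of all peaks and 23% of opened peaks. Apart from the set of all peaks, the order of these sets was the reverse of that for AP-1. The forkhead string TGTTTAC was in 18.4% of members, 9.26% of peaks with the same minimum, 8.38% of all peaks and 7.72% of opened peaks. The C/EBP string TTGCNNAA was in 35.8%, 23.6%, 25.8% and 27.3% of these sets in the same order. The TEAD string GGAATG was in 37.5% of members, 29.9% of peaks with the same minimum and 28.8% of all peaks. It was also in 38.0% and 35.9% of peaks closed by exactly 2 and exactly 1, and in 32.3% of opened peaks. The forkhead and C/EBP strings were in 16.5% and 33.1% of peaks closed by exactly 2.

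The NF-κB consensus was in 0.224% of members, 0.883% of peaks with the same minimum and 1.96% of opened peaks. The SMAD strings GTCTAGAC or GTCTGTCT were in 2.83% of members, 2.95% of peaks with the same minimum and 5.76% of opened peaks. The CTCF motif was in 0.314% of members against 2.52%. Strings were searched over the whole peak on both strands, could overlap one another, and describe sequence rather than binding.

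**Figure D4:**
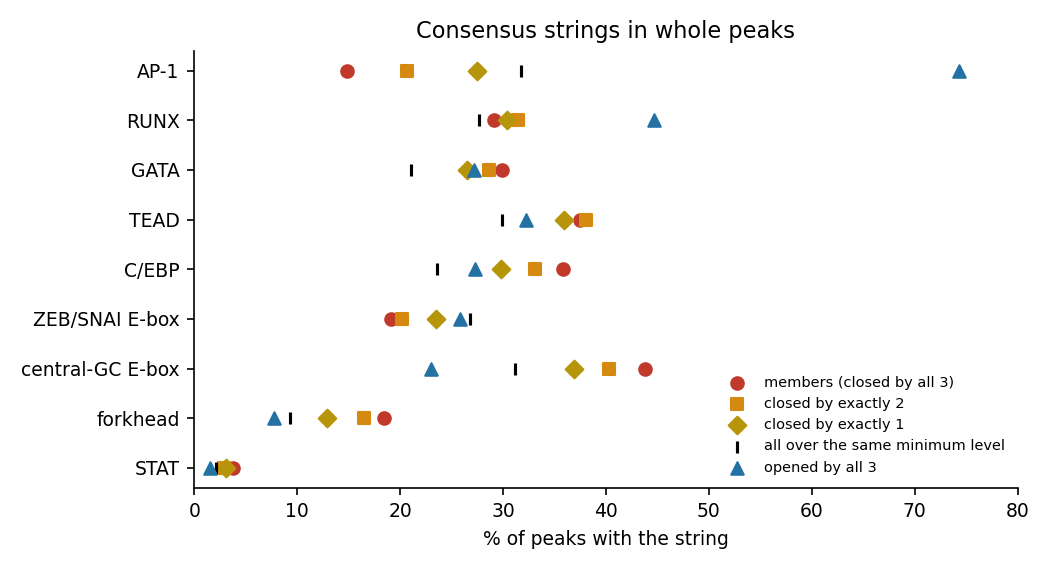
Percentage of peaks that hold a consensus string on either strand (x axis) for 9 strings (y axis) in members, in peaks closed by exactly 2 or exactly 1 of the 3 cytokines, in all 77349 peaks with the same minimum and in the 868 peaks opened by all 3. The AP-1 string is in 14.8% of members and 74.3% of opened peaks, and the E-box CAGCTG (named central-GC E-box) is in 43.8% and 23%.

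Members had a lower GC content than other peaks, so the strings were also counted within 3 GC classes of equal size over the peaks with the same minimum, with limits at 44.7% and 56.3%. AP-1 was in 16.8% and 48% of members and of all peaks with the same minimum in the class of lowest GC, 13.4% and 35.6% in the middle class and 5.95% and 11.4% in the highest class. CAGCTG was in 35.5% and 25.1%, 52.8% and 36.1%, and 67.3% and 32.3% in the same order. The forkhead string was in 21.4% and 15.4%, 15.9% and 8.88%, and 6.55% and 3.44%, and the C/EBP string in 41.8% and 36.4%, 29.1% and 24.5%, and 19% and 9.85%. The direction was the same in each class for these 4 strings. The classes held 1306, 755 and 168 members.

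Whether the members also responded to cytokines that played no part in choosing them was tested against the 8 IL-22 and IL-17A libraries. The unstimulated libraries were left out of this reference because members were chosen for high values in them. Relative to this reference OSM and IFNα gave lower accessibility at many members, and IL-13 gave higher accessibility. Against unstimulated cells, where members were chosen for high values, the median d was -0.41 with OSM, -0.49 with IFNα and 0.00 with IL-13. At the median member the unstimulated libraries lay 0.15 above the reference. With OSM 478 members were lower (21.4%, median log2 difference of all members -0.26) and 107 higher (4.8%), by limma at an adjusted p-value under 0.05. The same call was made for 4.03% lower and 6.2% higher of the 77349 peaks with the same minimum, and for 1.24% and 1.64% of all 407176 tested peaks. With IFNα 365 members were lower (16.4%, median -0.29) and 18 higher (0.808%), against 3.11% and 3.12% of peaks with the same minimum and 0.733% and 0.892% of all tested peaks. With IL-13 305 members were higher (13.7%, median 0.16) and 67 lower (3.01%), against 3.64% and 6.07% of peaks with the same minimum and 1.08% and 1.51% of all tested peaks. With IL-22 alone as reference 99 members were higher and 28 lower for IL-13, 56 were higher for OSM and 5 for IFNα. Over 24 settings of the fit, the IL-13 shares were 5.05 to 14.41 (higher) and 0.85 to 2.77 (lower) times those of all tested peaks. The higher shares were 1.32 to 3.50 times those of all tested peaks for OSM and 0.40 to 1.72 times for IFNα. In the main fit the lower share for IL-13 and the higher shares for OSM and IFNα lay below those of peaks with the same minimum. Ratios to peaks with the same minimum were not computed over the settings.

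IFNγ changed members in both directions. It lowered 80 (3.59%) and raised 120 (5.38%), against 2.82% and 4.12% of peaks with the same minimum and 0.669% and 2.1% of all tested peaks, so these shares lie near the background of peaks of the same level. With IL-22 alone as reference 41 were lower and 61 higher. Over 24 settings of the fit, the IFNγ shares were 2.10 to 6.57 (lower) and 1.39 to 3.52 (higher) times those of all tested peaks. With all 4 libraries IL-6 lowered 13 members (0.583%) and raised 19 (0.852%), against 0.874% and 0.181% of peaks with the same minimum and 0.206% and 0.0476% of all tested peaks. Without IL-6 replicate 4, limma called only 24 of all tested peaks for IL-6, and 0 members in either direction. At an unadjusted limma p under 0.05, 74 members were lower (3.32%) and 124 higher (5.56%). The same held for 4.24% and 3.1% of peaks with the same minimum and 2.19% and 2.44% of all tested peaks. The IL-6 calls thus rest on the library that resembled IL-13. In IL-22 against IL-17A, 2 members were lower (0.0897%) and 17 higher (0.763%). The background was 0.25% and 0.26% of peaks with the same minimum and 0.0678% and 0.0545% of all tested peaks. Relative to unstimulated cells, the median d over members was -0.19 with IL-17A and -0.08 with IL-22. The 5 cytokine contrasts share the IL-22 and IL-17A libraries. The median OSM difference was -0.16 over all tested peaks and 0.06 over peaks with the same minimum, so the OSM difference varied with the level of a peak.

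**Figure D5:**
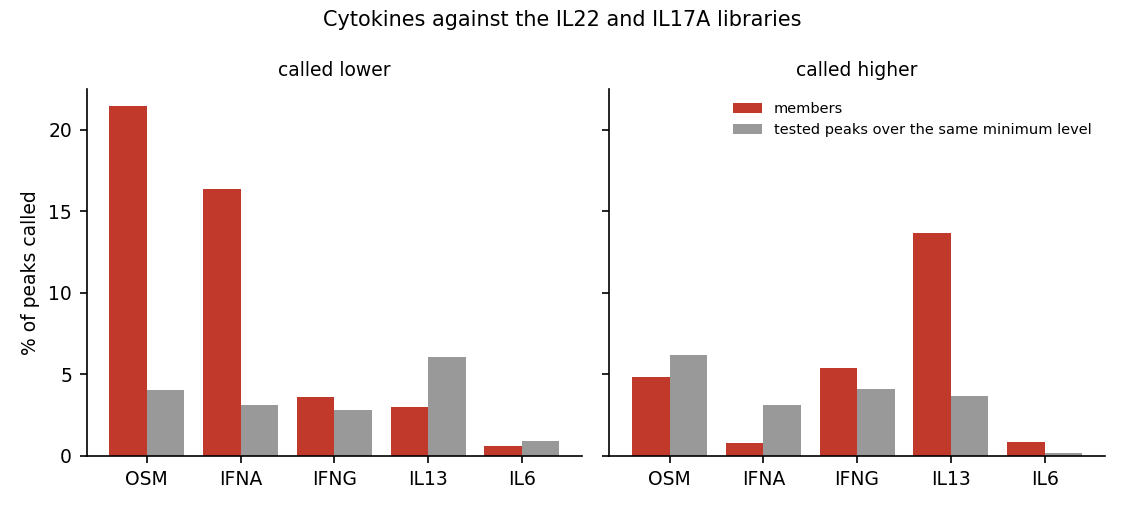
Percentage of peaks called lower (left) or higher (right) by limma (y axis, from 0) for 5 cytokines against the 8 IL-22 and IL-17A libraries (x axis), in the 2229 members and in the 77349 tested peaks with the same minimum level. Members were called lower in 21.4% with OSM and 16.4% with IFNα, and higher in 13.7% with IL-13. The IL-6 bars include replicate 4.

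A large OSM loss was seen at a distal peak near ADRB3, the β3-adrenergic receptor gene (chromosome 8, 37961956 to 37962456). Its scaled coverage was 5.09, 4.09, 4.21 and 3.92 with OSM, against 23.6, 21.5, 20.5 and 18.3 with IL-22 and 26.6, 21.7, 23.2 and 22.9 with IL-17A. The log2 difference was -2.24 ± 0.13, adjusted p 1.19e-39 (± SE, limma). The ADRB3 mean was 23 ± 2.05 in unstimulated cells, 10.9 ± 2.39 with TNF, 8.88 ± 1.59 with IL-1β and 6.51 ± 0.646 with TGF-β1. A distal peak near BANF2 held 1.81, 2.38, 1.47 and 2.86 with OSM against 5.79 to 14 in the reference libraries (-2.02 ± 0.21, adjusted p 1.17e-15).

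Other members were opened by OSM. The peak 4200 bases from the start of SOCS3, the gene of a feedback inhibitor of cytokine receptors that signal through STAT3 (chromosome 17, 78355624 to 78356124), held 31.1, 22.3, 24 and 29.9 with OSM, against 2.73, 3.99, 3.06 and 1.55 with IL-22 and 4.31, 7.67, 5.53 and 7.05 with IL-17A. The log2 difference was 2.56 ± 0.23, adjusted p 4.91e-20. The SOCS3 peak was at 1.09 ± 0.291 with TNF, 2.54 ± 0.901 with IL-1β and 1.41 ± 0.472 with TGF-β1, below the unstimulated mean of 4.3. A peak assigned to CTTNBP2NL rose with OSM (7.49 to 13.8 in its 4 libraries, against 0.975 to 3.42 in the reference, 1.84 ± 0.24, adjusted p 6.1e-10) and with IFNγ (1.30 ± 0.24, adjusted p 2.81e-05).

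IL-13 opened a distal peak assigned to C15orf53 (chromosome 15, 38885266 to 38885766) to 29.6, 26.4, 23 and 28.1, against 6.89, 7.01, 8.19 and 8.47 with IL-22 and 4.97, 6.57, 6.87 and 5.56 with IL-17A (1.92 ± 0.19, adjusted p 5.03e-17). The library labelled IL-6 replicate 4 held 22 there, against 7.8, 7.62 and 6.24 in the other IL-6 libraries. OSM raised the C15orf53 peak as well (1.03 ± 0.19, adjusted p 1.85e-05). A peak in an intron of the kinase gene FYN, assigned to TRAF3IP2, the gene of an adaptor of the IL-17 receptor, held 8.76, 9.06, 6.15 and 8.25 with IL-13 against 0.321 to 3.22 in the reference (2.19 ± 0.31, adjusted p 1.2e-08), and 3.85, 2.51, 0.343 and 10.8 in IL-6 replicates 1 to 4. IL-13 lowered an intronic peak at ZNF507 (-1.63 ± 0.25, adjusted p 1.72e-07) and a peak assigned to LINC01148 (-1.48 ± 0.28, adjusted p 6.6e-05).

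Both interferons opened the promoter peak of TRIM22, an interferon-induced antiviral gene (chromosome 11, 5689473 to 5689973, 26 bases from the start site). The TRIM22 peak held 21.8, 21.6, 17.9 and 27.3 with IFNα, against 6.96, 10.9, 13.4 and 9.35 with IL-22 and 11.1, 7.88, 9.65 and 8.15 with IL-17A (1.22 ± 0.15, adjusted p 2.69e-10), and the IFNγ difference was 1.18 ± 0.15, adjusted p 1.49e-10. It was at 6.7 ± 1.57 with TNF, 6.56 ± 1.95 with IL-1β and 7.0 ± 2.08 with TGF-β1, against 10.9 ± 1.57 in unstimulated cells. Another IFNα increase lay at a peak assigned to PAWR, with 4.3, 4.15, 4.4 and 3.96 against 0.997 to 2.41 in the reference (1.13 ± 0.27, adjusted p 0.00612).

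IFNα closed an intronic peak of CCDC93, an endosomal trafficking gene (chromosome 2, 117955948 to 117956448), to 3.47, 1.71, 2.88 and 2.58, against 9.01, 8.45, 10.5 and 11.5 with IL-22 and 8.76, 12.8, 12 and 14.5 with IL-17A (-1.82 ± 0.20, adjusted p 7.47e-13). OSM lowered CCDC93 too (-1.91 ± 0.20, adjusted p 9.78e-15). A peak assigned to CALN1, in an intron of TYW1B, held 1.27, 1.48, 0.91 and 0.768 with IFNα against 3.82 to 5.8 in the reference (-1.77 ± 0.26, adjusted p 7.54e-08). IFNγ raised the peaks assigned to ZNF436 (9.25 to 10.4, against 0.337 to 2.92 in the reference, 2.42 ± 0.28, adjusted p 1.12e-12) and PHTF2 (15.5 to 21.1, against 1.2 to 7.72, 2.02 ± 0.23, adjusted p 7.71e-14). IFNγ lowered the peaks assigned to MFAP4, a microfibril protein gene (-1.41 ± 0.29, adjusted p 0.000304), and STK33 (-1.37 ± 0.27, adjusted p 0.000123).

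The members with the lowest mean d differed in these responses, which are differences from the IL-22 and IL-17A libraries. OSM lowered the peaks at SACM1L (-1.34 ± 0.18, adjusted p 7.91e-10), PPM1A (-1.33 ± 0.24, adjusted p 1.23e-05), and the first NRP2 peak (-1.10 ± 0.22, adjusted p 0.000243). The second NRP2 peak, in an intron of PARD3B, rose with OSM (0.59 ± 0.17, adjusted p 0.035). EBLN2 fell with IFNα (-1.5 ± 0.19, adjusted p 5.76e-10). IL-13 raised NCKAP5-AS2 (1.28 ± 0.19, adjusted p 4.03e-08), ADAMTS9-AS1 (0.88 ± 0.13, adjusted p 3.16e-08) and AFAP1L2 (0.79 ± 0.20, adjusted p 0.00811). The CARMN exon peak of MIR143 was at 22.4 ± 4.48 with OSM and at 24 ± 2.68 with TNF, against 40.5 to 50.7 in the IL-22 and IL-17A libraries, and its OSM difference from these was -1.05 ± 0.09, adjusted p 6.21e-22. The promoter peak of LINC01497 also fell with OSM (-1.86 ± 0.18, adjusted p 8.18e-18).

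The calls were also counted by the strings that peaks held, in members and in all peaks with the same minimum. With OSM 25.9% of members with the E-box CAGCTG and 18% of those without it were lower, against 6.33% and 2.99% of all peaks with the same minimum. For the C/EBP string the shares lower with OSM were 21.2% and 21.6%, and for AP-1 19.7% and 21.7%, in members with and without the string. The STAT string TTCCNGGAA was in 83 members. With OSM 15.7% of members with the STAT string and 4.38% of those without it were higher, against 14.9% and 6.01% of all peaks with the same minimum. With IFNγ 19.3% of members with the STAT string and 4.85% of those without it were higher, against 8.77% and 4.01% of all peaks with the same minimum. With IFNα 22.9% and 16.1% of members with and without it were lower, against 4.75% and 3.08% of all peaks with the same minimum. With IL-13 18.4% of members with the TEAD string and 10.8% of those without it were higher, against 5.8% and 2.71% of all peaks with the same minimum. Members are a subset of the peaks with the same minimum, the differences between these shares were not tested, and the STAT subset is small.

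Members lay at genes of each of 11 lists, which together held 83 members at 55 of 239 genes. Relative to the peaks with the same minimum at the same genes, members made up 7.22% (7 of 97) at Hippo pathway genes and YAP/TEAD targets, 6.35% (12 of 189) at WNT pathway genes, 5.41% (4 of 74, all at CEBPD) at adipogenic and lipid genes, 4.56% (15 of 329) at genes of the TGF-β, BMP and SMAD pathway and 4.38% (16 of 365) at matrix genes. The share over all peaks with the same minimum was 2.88%. Members made up 3.21% (10 of 312) at mesenchymal and positional transcription factors, 2.53% (5 of 198) at growth factors and receptors, 2.22% (4 of 180) at glucocorticoid, FOXO and circadian genes, 2.11% (5 of 237) at adhesion and guidance genes, 1.79% (3 of 168) at contractile genes and 1.18% (2 of 170) at AP-1 and immediate early genes. These counts are small, and none of the lists was tested. Below, responses to OSM, IL-13 and the interferons are differences from the IL-22 and IL-17A libraries, not from unstimulated cells.

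At matrix genes the lowest members were intergenic peaks near COL6A1 and COL6A3, which encode chains of collagen VI. The COL6A1 peak held 13.2, 10.9, 9.54 and 7.94 in unstimulated cells, 3.94, 4.34, 2.85 and 3.01 with TNF, 3.98, 2.34, 1.99 and 2.18 with IL-1β, and 2.22, 4.42, 3.48 and 4.35 with TGF-β1, and IL-13 raised it (0.76 ± 0.18, adjusted p 0.0024). The COL6A3 peak held 6.99, 9.01, 7.68 and 6.32 in unstimulated cells and was 3.86-fold lower with TNF, 3.72-fold with IL-1β and 2.02-fold with TGF-β1. COL6A3 also fell with OSM (-1.70 ± 0.21, adjusted p 2.9e-11).

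In the TGF-β and BMP list, a pair of peaks near BMP4, a BMP ligand gene of the stroma, had mean d of -1.39 and -1.14. The lower of them held 3.92, 3.32, 3.69 and 1.22 in unstimulated cells, 1.71, 1.23, 0.324 and 0.586 with TNF, 1.96, 1.52, 0.557 and 0.676 with IL-1β, and 0.235, 0.341, 1.21 and 0.251 with TGF-β1, and OSM lowered it (-1.22 ± 0.29, adjusted p 0.00248). Among WNT genes, the peak near RSPO3, which encodes a secreted WNT amplifier, held 10.2, 5.98, 7.22 and 6.39 in unstimulated cells, 3.59, 0.994, 2.0 and 1.74 with TNF, 2.1, 4.2, 3.86 and 3.3 with IL-1β, and 2.57, 4.64, 4.65 and 2.92 with TGF-β1. A TCF7L2 peak 148 bases from a start site of this WNT effector gene held 4.93 ± 1.21 in unstimulated cells and was 2.08-fold lower with TNF, 3.08-fold with IL-1β and 2.29-fold with TGF-β1.

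Among transcription factors, the peak near NR2F1, a nuclear receptor gene, held 11.7, 9.12, 13.2 and 12.1 in unstimulated cells, 2.27, 2.07, 3.33 and 3.88 with TNF, 4.6, 5.19, 7.23 and 4.33 with IL-1β, and 3.65, 4.39, 6.6 and 4.51 with TGF-β1. NR2F1 rose with IL-13 (0.85 ± 0.17, adjusted p 0.000155) and fell with IFNα (-1.01 ± 0.17, adjusted p 5.6e-06). An intronic peak of GLI3, a hedgehog pathway factor gene, had a mean d of -1.54 at a low unstimulated level of 3.07 ± 0.703. An intronic peak of SGK1, a serum and glucocorticoid regulated kinase gene, held 6.03, 6.76, 7.43 and 6.51 in unstimulated cells, 2.2, 2.23, 2.19 and 0.844 with TNF, 2.13, 2.13, 1.64 and 2.5 with IL-1β, and 3.49, 5.09, 3.14 and 1.95 with TGF-β1. SGK1 rose with IFNγ (0.77 ± 0.20, adjusted p 0.00889) and fell with IFNα (-0.84 ± 0.20, adjusted p 0.00593).

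Among contractile genes, a peak 1088 bases from a start of CALD1, which encodes the actin-binding protein caldesmon, held 16.8, 22.9, 21.9 and 10.6 in unstimulated cells, 4.9, 4.87, 8.59 and 9.21 with TNF, 4.77, 4.46, 4.25 and 7.19 with IL-1β, and 11.9, 10.4, 6.73 and 9.52 with TGF-β1. Unstimulated replicate 4 of CALD1 lay within the range of the TGF-β1 libraries. OSM (0.51 ± 0.14, adjusted p 0.0123) and IL-13 (0.61 ± 0.14, adjusted p 0.00135) raised it. Among Hippo genes the lowest member was assigned to AMOTL1, an angiomotin family gene (mean d of -1.33), which OSM (-0.93 ± 0.20, adjusted p 0.000832) and IFNα (-0.99 ± 0.20, adjusted p 0.000601) lowered. Among growth factors a peak in FGF1 had d of -1.24, -1.06 and -1.16 with TNF, IL-1β and TGF-β1.

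The 2 members at AP-1 genes lay at FOS and JUND, which encode AP-1 subunits. The FOS peak held 13.5, 12.6, 12.1 and 11 in unstimulated cells, 7.3, 2.65, 4.08 and 5.59 with TNF, 9.42, 7.41, 5.94 and 7.68 with IL-1β, and 7.93, 7.6, 9.55 and 5.81 with TGF-β1. Against the IL-22 and IL-17A libraries (scaled coverage 7.07 to 15.9), FOS rose with OSM (1.05 ± 0.18, adjusted p 2e-06) and fell with IFNα (-1.06 ± 0.18, adjusted p 4.47e-06), IFNγ (-0.77 ± 0.18, adjusted p 0.00136) and IL-13 (-0.70 ± 0.18, adjusted p 0.0068). The JUND peak held 6.67 ± 1.24 in unstimulated cells and 8.26 ± 0.903 with OSM, against 2.82 to 5.77 in the IL-22 and IL-17A libraries (0.84 ± 0.22, adjusted p 0.0118 against those libraries). OSM also raised the CEBPD peak with the lowest mean d (0.71 ± 0.18, adjusted p 0.00658), near a C/EBP factor gene. Its level was 8.47 to 14 in the IL-22 and IL-17A libraries, with a mean of 17.4 ± 1.77 with OSM, 10.1 ± 1.48 in unstimulated cells and 5.35-fold below that with TNF.

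Relative to unstimulated cells, which the rule used, 504 members (22.6%) had a d below 0 for all 10 cytokines and 5 had -0.6 or less for all 10. In 806 members (36.2%) none of the other 7 cytokines gave a d of -0.6 or less. The same counts were not made for other peaks, and all 10 differences share the unstimulated libraries. The fit called 1749 members lower with TNF, 1666 with IL-1β and 1386 with TGF-β1, and these counts follow from the rule. The same call was made for 7.24%, 8.45% and 7.72% of peaks with the same minimum and for 1.69%, 1.79% and 1.52% of all tested peaks.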

How the data were processed

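ATAC-seq was analysed in 44 libraries of Ccd18-Co cells (11 groups of 4). The deposited values are signal, that is read coverage summed by the authors over each 500-base peak with no scaling for library size. The most frequent low value was 75, taken as the length of a read. The submitters' processing notes name hg38 and MACS2. The study describes 500-base peaks of fixed width for its single-cell ATAC-seq data (MACS2 and ArchR), and whether the deposited peaks are those is not stated. Coordinates are as deposited.

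Coverage is not a count, so no count model was used. Coverage was divided by the library total in Mb and by a composition factor (trimmed mean of log ratios, 30% and 5%), 0.5 was added and log2 taken. limma 3.58.1 in R 4.3.3 was fitted to all 44 libraries with group as the only term and a mean-variance trend, and p-values were adjusted by the Benjamini-Hochberg method over the 407176 peaks tested (207 with very low coverage were left out). The code was tested on simulated data. Values per library are on the scale of library totals.

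Members, gene lists, strings, the reference of IL-22 and IL-17A libraries and the peaks to be named were chosen with earlier results of these data known. Named peaks were the 12 with the lowest mean d, the 5 most accessible, those beside the thresholds, up to 2 lower and 2 higher per cytokine by change without overlap, up to 2 per gene list, the genes with most members and 5 promoters, and most of these are described. Sequences were read from hg38 and annotated with GENCODE v44. A leukocyte marker gene is not reported here.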

Additional observations from a re-analysis of the deposited data

Results flagged for a closer look

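In groups of 4 libraries, the highest or lowest library was compared with the rest, and 3 of 59 groups held a library far from the others, where chance gives about 1 in 20. The share of coverage in members was 0.8451% in an IL-1β library, against 0.8547%, 0.8559% and 0.856% in the other libraries. The SACM1L peak was at 3.826 scaled coverage in IL-1β replicate 1, against 2.283 to 2.48 in the other replicates. The NCKAP5-AS2 peak was at 5.277 in TGF-β1 replicate 2, against 2.997 to 3.36.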

How the results depend on the processing

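The number of members, 2229, was 3501 and 1158 with a minimum level of 1 or 6 scaled coverage, 3412, 907 and 326 with a threshold of -0.5, -0.8 or -1, and 2177 to 2766 without single libraries. Members called lower and higher ran from 366 to 476 and 69 to 108 for OSM, 257 to 360 and 12 to 19 for IFNα, 43 to 67 and 217 to 306 for IL-13, 44 to 74 and 75 to 115 for IFNγ, and 0 to 25 and 0 to 32 for IL-6 when single libraries were left out. The lowest counts came without OSM replicates 1 and 3, IFNα replicates 4 and 1, IL-13 replicates 2 and 3, IFNγ replicates 1 and 3, and IL-6 replicate 4. Members lower with IFNγ were also 52 and 53 without IFNγ replicates 2 and 4. Members lower with IL-6 were 25 without IL-6 replicate 1 or 2 and 8 without IL-22 replicate 2, and members higher with IL-6 were 32, 9 and 12 without IL-6 replicate 1, IL-17A replicate 4 and IL-22 replicate 1. With IL-22 alone as reference the higher counts were 56 for OSM, 99 for IL-13, 61 for IFNγ, 5 for IFNα and 0 for IL-6, and the lower counts 28 for IL-13, 41 for IFNγ and 0 for IL-6. With IL-17A alone the higher counts were 35 for IFNα and 67 for IL-6. Sample quality weights gave 175 higher for OSM, 29 for IFNα and 6 for IL-6, and 3 lower for IL-6. With only the groups compared in the fit, 173 were higher for OSM and 125 lower for IFNγ. The cause of these shifts was not tested. The share of all tested peaks that was called varied with the setting too, so a shift in a count need not be particular to members. The counts of members lower with OSM and IFNα stayed within 1.5 times the reported value in all 23 alternatives run for each (353 to 675 and 248 to 449). Their shares were 7.22 to 25.6 and 8.20 to 32.55 times those of all tested peaks over these settings and the main fit. For IL-6 the shares were 0 to 3.87 (lower) and 0 to 30.89 (higher) times those of all tested peaks.

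Same-numbered libraries of the tested cytokines and of IL-22 and IL-17A did not deviate together (84 pairs, r from -0.02 to 0.04). Over all groups 16 of 44 libraries correlated best with a library of their own number. No pairing was taken from the numbers in the main fit. With the replicate number as a block, 481 members were lower and 107 higher for OSM, 368 and 18 for IFNα, 68 and 307 for IL-13, 80 and 120 for IFNγ, and 13 and 19 for IL-6.

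The promoter share of members was 18.7% by the annotation. In the central 200 bases AP-1 was in 8.25% of members, CAGCTG in 30.1%, forkhead in 9.83%, C/EBP in 18.5% and TEAD in 21.2%. Against all peaks the share of members minus that of the others was -10.9 percentage points for AP-1, 15.3 for CAGCTG and 10.0 for C/EBP, and the difference in median GC content was -1.60. Of the 368 alternative values for peaks named by their response to a cytokine, 366 kept direction and call. The exceptions were LINC01148 with IL-13 (highest adjusted p 0.103) and PAWR with IFNα (0.0764). No member was called for IL-6 without its replicate 4, which was the shallowest library and resembled IL-13 libraries. Only 24 of all tested peaks were called in that fit.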
